A study of Mus musculus with 8 samples.

Results

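The expression of chromatin-modifying enzymes was compared between CCR8+ and CCR8- CD4+ T conventional (Tconv) cells from Treg cell-depleted tumors. The set held every gene whose symbol began with Dnmt or Setd, or with Kdm, Hdac, Sirt or Kat followed by a number, together with the Kmt2 genes, Ezh1 and Ezh2, and Tet1 to Tet3. A mean of at least 10 normalized counts over the 8 libraries was also required. All 63 matching symbols met it, out of 11233 genes in the table. The lowest mean was that of Tet1, at 24.8 normalized counts, and no matching gene lay outside the limit. By their names, 28 of the genes were writers, which add a methyl or acetyl group to histones or DNA, and 35 were erasers, which remove such groups.

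B16-F10 melanoma, a transplantable mouse tumor line, had been grown under the skin of Foxp3EGFP-DTR mice. In these animals the Foxp3 gene also drives EGFP and a receptor for diphtheria toxin (DTx), and Foxp3-expressing cells, mainly Treg cells, die when the toxin is given. All 8 libraries came from such mice aged 8 to 14 weeks, given 4 injections of 1 μg DTx from day 7 to day 13, with cells taken on day 16 after implantation. By the methods and labels, the groups shared genotype, tumor, toxin and time and differed in the sort. Of the libraries, 4 were of EGFP-negative CD4+ cells with CCR8 on their surface, and 4 were of such cells without it. No library of untreated mice was analysed here. Males and females were used, and all replicates came from a single day of isolation. Both groups carry the replicate numbers 1 to 4, but the labels do not say that a number stands for a mouse. The study's methods call the replicates biological, and p-values measure the spread between them.

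Cells package DNA around histones, and the tails of these proteins carry acetyl and methyl groups that open or close a gene to transcription. Acetyltransferases of the Kat family add acetyl groups, which the zinc-dependent Hdac enzymes and the NAD-dependent sirtuins take off. Kmt2, Ezh and many Setd proteins methylate histone lysines, Kdm proteins demethylate them, Dnmt enzymes methylate cytosine in DNA, and Tet enzymes oxidize that methyl group as a step towards its loss. In CD4+ T cells, such marks are known to hold cytokine and lineage genes open or shut as the cells take on a helper or regulatory fate.

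Of the 63 enzymes, 0 passed the test between CCR8+ and CCR8- Tconv cells at an adjusted p under 0.05 (limma, Benjamini-Hochberg over 11032 genes), against a background of 0% of all tested genes. On recovered reads the number was 0 by edgeR, beside 0%, and 0 by DESeq2, beside 0.236%, among the 6 enzymes to which it gave an adjusted p. At an unadjusted p under 0.05, 4 enzymes stood out, or 6.35%, beside 5.09% of all tested genes. These were the demethylases Kdm4c and Kdm5a, the deacylase Sirt7 and the methyltransferase Ezh1, and all 4 were lower in CCR8+ cells, a direction that 2.29% of all tested genes took at that limit, while 0 enzymes and 2.8% of all tested genes were higher. By edgeR and by DESeq2, 5 enzymes were at an unadjusted p under 0.05, beside 4.41% and 5.46% of all tested genes. They were these 4, again lower, and Tet1, which was higher and passed the limit on the mean through the CCR8+ group alone. The groups did not overlap for 5 enzymes, or 7.94%, beside 4.4% of all tested genes: Hdac2 was higher, and Kdm4c, Kdm4a, Ezh1 and Setd2 were lower in every CCR8+ library than in every CCR8- library. The 4 lower ones were 6.35% of the set, beside 2.03% of all tested genes. Neither direction prevailed, since 33 estimates lay above 0 and 30 below, or 52.4% higher, equal to the 52.4% over all tested genes. The 95% intervals of the fold changes were wide. Their median width was 3.13 on the log2 scale, and the interval lay wholly between -1 and 1, that is within a 2-fold change either way, for 9 enzymes: Hdac2, Hdac3, Kat5, Kat7, Kmt2e, Kdm2b, Ezh2, Sirt2 and Dnmt1.

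**Figure D1:**
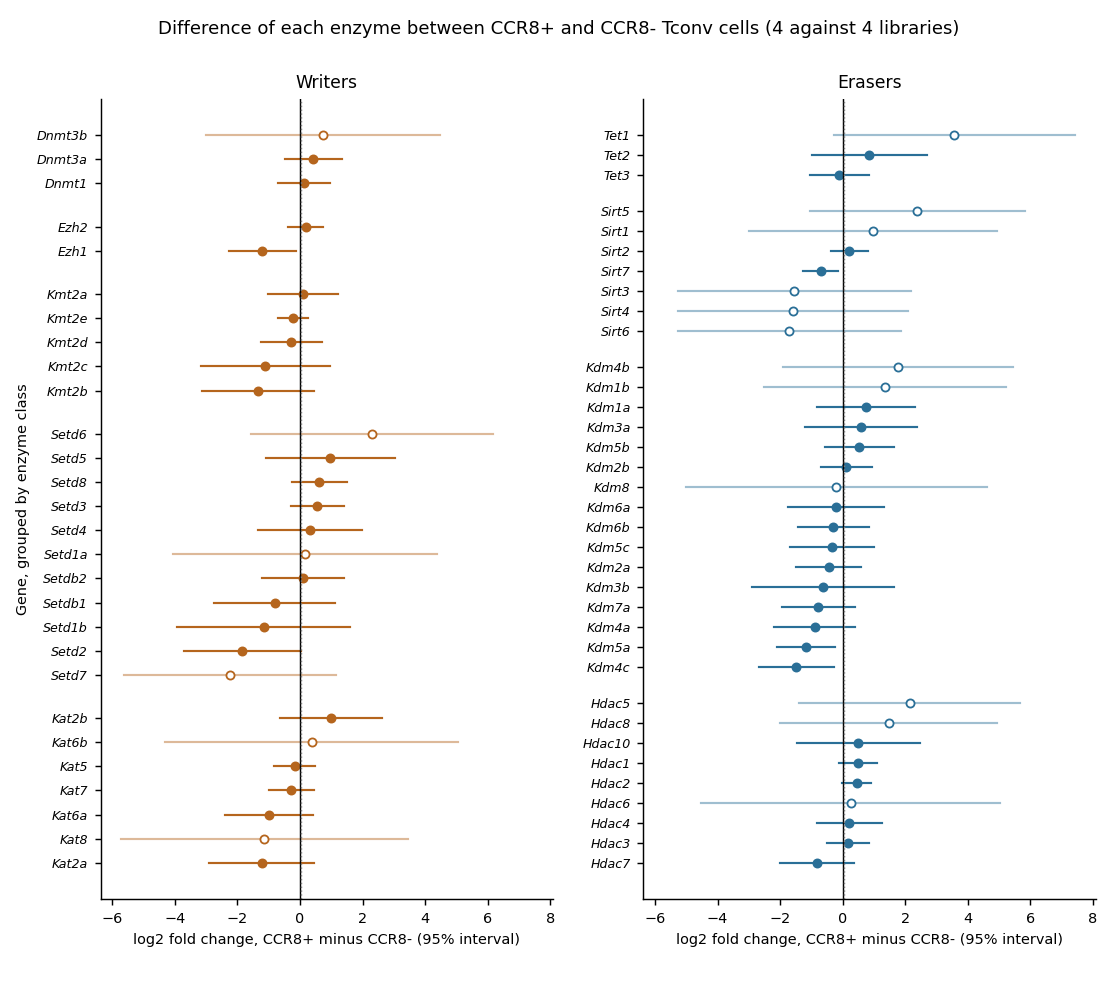
log2 fold change of each enzyme, CCR8+ minus CCR8-, with its 95% interval from limma (4 against 4 libraries). Filled points are the 45 enzymes above 3 reads in all 8 libraries and open points the 18 that were not. The dotted line is the median of all tested genes, 0.04. The intervals of Kdm4c, Kdm5a, Sirt7 and Ezh1 lie below 0, and no interval lies above it.

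The libraries were not equally complete. They held 12067780 to 17802628 recovered reads, and in CCR8- replicate 1 only 8569 genes had a read, against 9544 to 10882 in the others. In that library 13 of the 63 enzymes had 3 reads or fewer, below which a value could not be told apart from 0. The number was 7 in CCR8+ replicate 1, 3 in CCR8+ replicate 3 and 0 to 2 in each of the others. In all, 18 enzymes (28.6%) fell to that floor in some library, beside 34.2% of all tested genes. CCR8- replicate 1 held the lowest value of the 8 for 24 enzymes (38.1%, beside 27.6% of all tested genes) and the highest for 16 (25.4% beside 22.8%). CCR8+ replicate 1 held the lowest for 19 (30.2% beside 13.2%), and CCR8- replicate 3 the highest for 18 (28.6% beside 14.7%). Low values move with the estimates. Of the 10 enzymes with the 5 highest and 5 lowest fold changes, 9 were at 0 in a library numbered 1. The other, Setd2, had 16 reads in CCR8+ replicate 1. Tet1, counted among the 9, was also at 0 in libraries with other numbers and had its highest value in CCR8+ replicate 1.

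**Figure D2:**
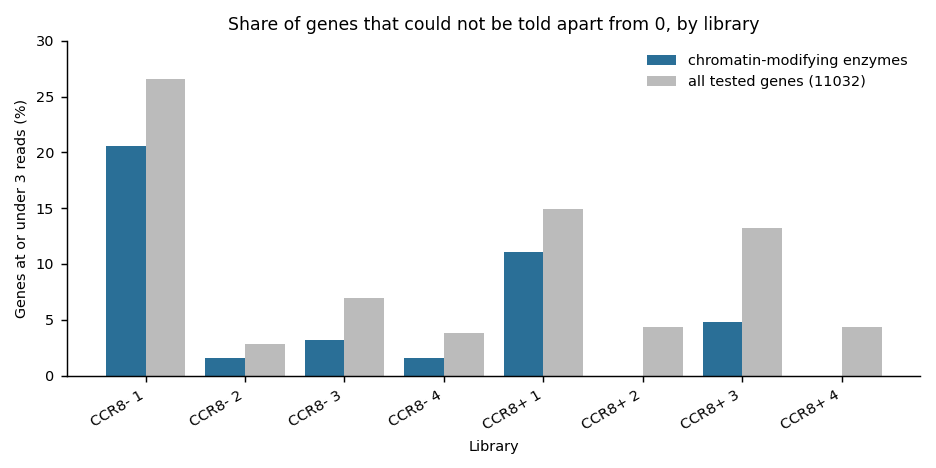
Share of genes at or under 3 reads in each library, for the 63 enzymes (blue) and all 11032 tested genes (grey), in percent. CCR8- replicate 1 stands highest, with 20.6% of the enzymes and 26.6% of tested genes, followed by CCR8+ replicate 1 with 11.1% and 14.9%.

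The sort was seen in its own marker: Ccr8, the chemokine receptor used for the gate, had 1293 to 6214 normalized counts in CCR8- and 6970 to 42508 in CCR8+ libraries. Its groups did not overlap, with a log2 fold change of 2.37 ± 0.62 (SE, limma unadjusted p = 0.0028). Even so, Ccr8 did not pass the test at an adjusted p under 0.05. A gene can therefore differ between the groups without passing, and an enzyme that did not pass is not shown to be unchanged. Cd4 had 6365 to 9823 normalized counts, with ranges that overlapped. Myeloid markers summed to 27.6 to 52466 normalized counts in CCR8- and 2663 to 27368 in CCR8+ libraries, with the lowest sum in CCR8- replicate 1 and the highest in CCR8- replicate 4. All 9 were higher in CCR8+ cells by estimate on the log2 scale, with 0 passing the test. The group means went the other way for C1qa (892 in CCR8- and 660 in CCR8+ cells), C1qb (3323 and 2464) and Adgre1 (219 and 215), and were higher in CCR8+ cells for the rest. Melanoma markers summed to 105 to 17324 in CCR8- and 232 to 21762 in CCR8+ libraries, and CD8 and NK markers to 1034 to 5640 and 593 to 1647. Of the B cell markers, Ms4a1 was at 0 in every library, while Cd79a and Cd79b together had 0 to 447 normalized counts. The part of these other cells in the enzyme values was not tested, and fewer cells of a type and less RNA per cell cannot be told apart in bulk samples.

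Levels were compared between genes as normalized counts per kilobase of annotated exon. On that scale the most abundant enzyme was Hdac1, a class I deacetylase of the NuRD, Sin3 and CoREST complexes, with a mean of 1162 per kilobase over the 8 libraries. Sirt7, a nucleolar sirtuin that acts on ribosomal DNA chromatin, followed with 565, and Kmt2e, a Kmt2 relative that binds methylated histone but lacks methyltransferase activity, with 370. Next came Hdac2, the partner of Hdac1 in the same complexes, with 305 per kilobase, Setd6, which methylates the NF-kB subunit RelA, with 282, and Sirt2, a largely cytoplasmic sirtuin that deacetylates tubulin, with 262. Ezh2, the catalytic subunit of Polycomb repressive complex 2, had 190.3, and its relative Ezh1 had 77.4. Of the DNA methyltransferases, Dnmt1, which copies methylation after replication, had 114 per kilobase, while Dnmt3a, which lays down new methylation, had 29.3. The level spanned from these values down to 1.61 per kilobase for Tet1.

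**Figure D3:**
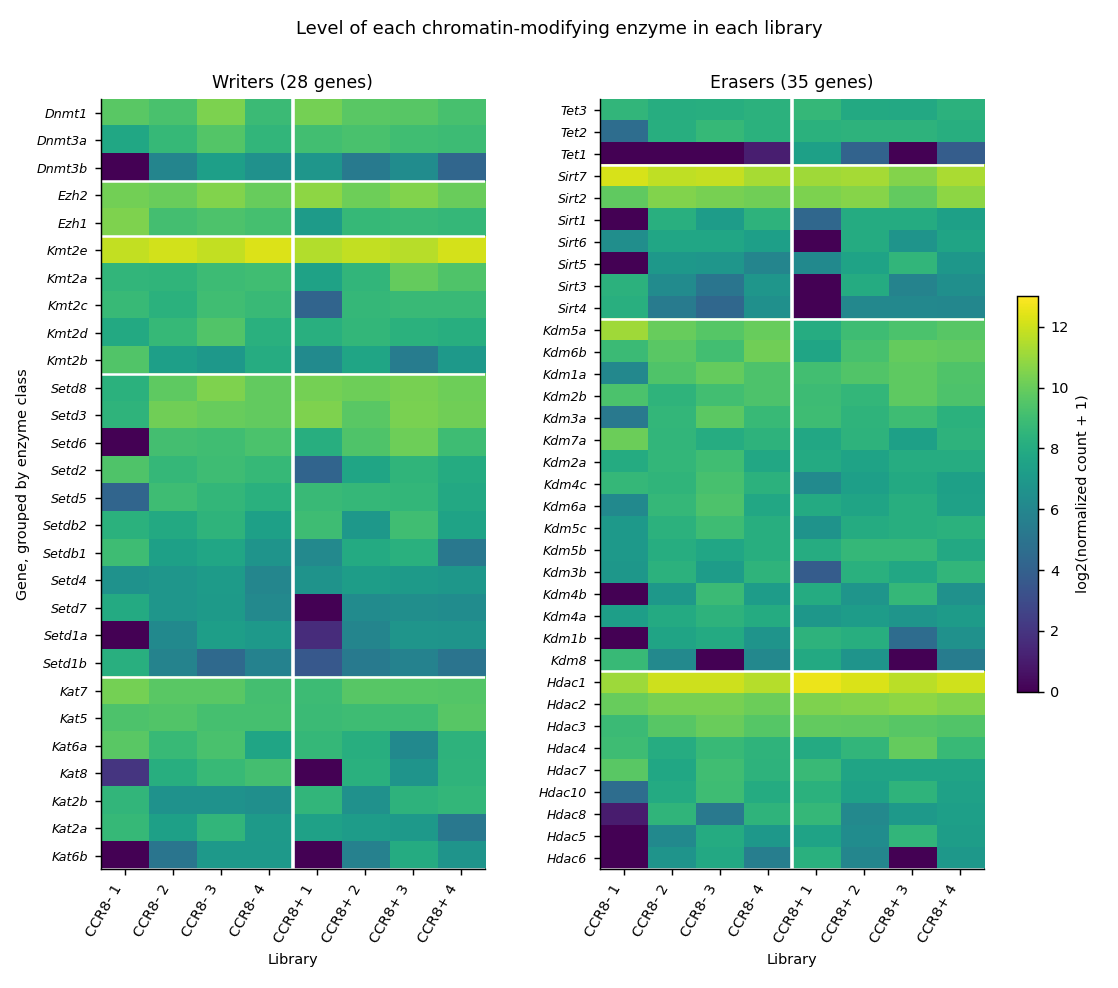
log2(normalized count + 1) of each enzyme (each on its own line, grouped by class and ordered by mean) in each of the 8 libraries. Hdac1, Kmt2e and Sirt7 are bright in all 8 columns, and dark cells, which mark values near 0, gather in CCR8- replicate 1 and CCR8+ replicate 1.

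Among the writers, 14 estimates lay above 0 and 14 below, and the median log2 fold change was -0.04, beside 0.04 over all tested genes. On recovered reads the writer median was -0.26 by edgeR and -0.27 by DESeq2, each with 12 estimates above 0 and 16 below. The median of all tested genes was then 0.01 by both. With quantile scaling the writer median was -0.22, and with limma quality weights it was -0.27, with 9 above 0 and 19 below. Ezh1, a Polycomb methyltransferase that is the main form in resting cells, had 1422, 551, 658 and 568 normalized counts in CCR8- replicates 1 to 4 and 137, 413, 454 and 404 in CCR8+ replicates 1 to 4. All 4 CCR8+ values lay below all 4 CCR8- values, but CCR8- replicate 1 was far above and CCR8+ replicate 1 far below the rest. The mean was 800 ± 418 in CCR8- and 352 ± 145 in CCR8+ cells (SD, n = 4), a log2 fold change of -1.20 ± 0.48 (SE; limma unadjusted p = 0.0299, adjusted p = 0.838). The exact two-sided permutation p was 0.0286, the smallest that 4 against 4 libraries allow. Without CCR8+ replicate 1 the log2 fold change was -0.80. Its partner Ezh2 had 1006 to 1501 normalized counts in CCR8- and 1045 to 1762 in CCR8+ libraries, and its log2 fold change of 0.18 had a 95% interval from -0.38 to 0.74 and was 0.040 without CCR8+ replicate 1.

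Setd2, the methyltransferase that trimethylates lysine 36 of histone H3 over transcribed gene bodies, had 677, 404, 494 and 417 normalized counts in CCR8- and 17.3, 201, 362 and 251 in CCR8+ replicates 1 to 4. The groups did not overlap, and the lowest CCR8+ value stood in replicate 1, at 16 reads. The log2 fold change was -1.85 ± 0.85 (SE; limma unadjusted p = 0.0521, adjusted p = 0.838), with an exact permutation p of 0.0286. Without CCR8+ replicate 1 it was -0.89.

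The DNA methyltransferases Dnmt1, Dnmt3a and Dnmt3b all had estimates above 0, or 2 of 3 with quantile scaling, by edgeR and by DESeq2, and 0 passed the test. Without both libraries numbered 1, 1 of 3 was above 0 and the median was -0.03. Dnmt1 had 805, 615, 1386 and 470 normalized counts in CCR8- and 1227, 810, 797 and 588 in CCR8+ replicates 1 to 4. The groups overlapped throughout, with the highest value in CCR8- replicate 3, and the log2 fold change was 0.13 (95% interval -0.69 to 0.95). It turned to -0.06 without CCR8+ replicate 1 and to -0.09 without CCR8- replicate 4. Dnmt3a had 211, 421, 738 and 380 normalized counts in CCR8- and 534, 621, 518 and 473 in CCR8+ replicates 1 to 4. Its CCR8+ values were close together and lay within the range of the CCR8- values (log2 fold change 0.42, 95% interval -0.48 to 1.33), and the estimate was 0.12 without CCR8- replicate 1.

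The 5 Kmt2 genes, which encode large methyltransferases for lysine 4 of histone H3 and the inactive Kmt2e, had a median log2 fold change of -0.27, with 4 of 5 below 0, and of -0.14, with 3 of 5 below 0, without CCR8+ replicate 1. Without CCR8- replicate 1 it was -0.51. Kmt2e had 3644, 4424, 3531 and 5077 normalized counts in CCR8- and 2938, 3586, 3133 and 4614 in CCR8+ replicates 1 to 4. The ranges overlapped, and the CCR8+ value was the lower in all 4 same-numbered pairs, with log2 differences of -0.31, -0.30, -0.17 and -0.14. Its log2 fold change of -0.23 had an interval from -0.71 to 0.25. Exons of Kmt2e share 9.31% of their bases with Srpk2 on the other strand, and the use of strand in counting is not given in the sources used here.

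Acetyltransferases had a median log2 fold change of -0.27, with 5 of 7 below 0 and 0 at an unadjusted p under 0.05. The median was -0.71 without CCR8- replicate 1 and -0.10 without CCR8+ replicate 1. Kat7, the acetyltransferase of the HBO1 complexes, had 1237, 823, 814 and 558 normalized counts in CCR8- and 473, 798, 766 and 746 in CCR8+ replicates 1 to 4. Both ends of this overlap were in the libraries numbered 1, and the log2 fold change of -0.27 became 0.10 without them. Among the 11 Setd genes, of which Setd3 is known as a histidine methyltransferase of actin rather than of histones, 7 estimates lay above 0 and the median was 0.16, which turned to -0.14 without CCR8- replicate 1. Setd8, which monomethylates lysine 20 of histone H4 and is now named Kmt5a, had 318 to 1413 normalized counts in CCR8- and 1113 to 1305 in CCR8+ libraries (log2 fold change 0.62 ± 0.40, SE), and the estimate was 0.19 without CCR8- replicate 1.

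The widest estimates among the writers came from Setd genes that were at 0 in a library. Setd6 had 0, 550, 523 and 628 normalized counts in CCR8- and 287, 678, 1131 and 499 in CCR8+ replicates 1 to 4. Apart from the 0 in CCR8- replicate 1 its groups overlapped, and the log2 fold change of 2.31 (SE 1.76) was 0.03 without that library. Setd7, a monomethyltransferase of histone and other proteins, had 244, 113, 135 and 68.1 normalized counts in CCR8- and 0, 77.3, 84.4 and 80.1 in CCR8+ replicates 1 to 4. The 0 was again in a library numbered 1, and the log2 fold change of -2.23 (SE 1.54) was -0.64 without CCR8+ replicate 1.

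Among the erasers, 19 estimates lay above 0 and 16 below, with a median log2 fold change of 0.18. This median rested on CCR8- replicate 1. Without that library it was -0.36, with 10 estimates above 0 and 25 below, while the median of all tested genes was -0.08. The writers moved the same way, to a median of -0.34, with 10 above 0 and 18 below. On recovered reads the eraser median was -0.04 by edgeR and -0.04 by DESeq2.

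The lysine demethylases had a median log2 fold change of -0.26, with 10 of 16 below 0. Without CCR8- replicate 1 it was -0.50, with 13 of 16 below 0, and without CCR8+ replicate 1 it was 0.12, with 7 of 16 below 0. Kdm4c and Kdm4a remove trimethyl groups from lysines 9 and 36 of histone H3. Kdm4c had 405, 367, 604 and 321 normalized counts in CCR8- and 72.4, 160.4, 241 and 167 in CCR8+ replicates 1 to 4. The groups did not overlap, and the highest CCR8+ value stayed below the lowest CCR8- value. The mean was 424 ± 125 in CCR8- and 160.1 ± 68.9 in CCR8+ cells (SD, n = 4), a log2 fold change of -1.48 ± 0.54 (SE; limma unadjusted p = 0.0193, adjusted p = 0.838). The CCR8+ value was lower in all 4 same-numbered pairs, with log2 differences of -2.47, -1.19, -1.33 and -0.94. Leaving out each library in turn gave log2 fold changes from -1.72 to -1.14.

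Kdm4a had 154, 244, 335 and 257 normalized counts in CCR8- and 118, 144, 109 and 142 in CCR8+ replicates 1 to 4. These groups did not overlap either, although CCR8- replicate 1 came close to the highest CCR8+ values. The log2 fold change was -0.90 ± 0.59 (SE; limma unadjusted p = 0.156, adjusted p = 0.838), and it lay between -1.11 and -0.73 when each library was left out in turn. The third member of the family, Kdm4b, had 0, 120, 465 and 144 normalized counts in CCR8- and 254, 110.0, 398 and 94.9 in CCR8+ replicates 1 to 4. Its groups overlapped, and its log2 fold change of 1.76 (SE 1.68) rested on the 0 in CCR8- replicate 1, without which it was -0.15.

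Kdm5a, which removes methyl groups from lysine 4 of histone H3, had 2289, 991, 758 and 994 normalized counts in CCR8- and 264, 500.4, 630 and 788 in CCR8+ replicates 1 to 4. The groups overlapped only in that CCR8+ replicate 4 was above CCR8- replicate 3, and the extremes were again both libraries numbered 1. The mean was 1258 ± 696 in CCR8- and 545 ± 222 in CCR8+ cells (SD, n = 4). The log2 fold change was -1.17 ± 0.43 (SE; limma unadjusted p = 0.0188, adjusted p = 0.838) and was -0.84 without CCR8- replicate 1. Kdm6b, which removes the Polycomb mark from lysine 27 of histone H3, had 472, 822, 536 and 1154 normalized counts in CCR8- and 198, 601, 960.2 and 905 in CCR8+ replicates 1 to 4. Its groups overlapped broadly, and the log2 fold change of -0.30 (95% interval -1.43 to 0.83) was 0.20 without CCR8+ replicate 1.

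Zinc-dependent deacetylases had a median log2 fold change of 0.44, with 8 of 9 above 0. With quantile scaling and by DESeq2 7 of 9 were above 0, and by edgeR 6 of 9. With limma quality weights the median was 0.05, with 5 of 9 above 0. Without both libraries numbered 1 it was -0.10, with 4 of 9 above 0. Without CCR8- replicate 1 the median was -0.05, with 4 of 9 above 0. Hdac2 had 1006, 1286, 1268 and 1077 normalized counts in CCR8- and 1457, 1552, 1778 and 1493 in CCR8+ replicates 1 to 4. Every CCR8+ value lay above every CCR8- value, and the spread within each group was small. The mean was 1159 ± 139 in CCR8- and 1570 ± 144 in CCR8+ cells (SD, n = 4), a log2 fold change of 0.44 ± 0.21 (SE; limma unadjusted p = 0.0594, adjusted p = 0.838). It was the single enzyme whose groups did not overlap in the upward direction, at 1.59% of the set beside 2.37% of all tested genes. With every library scaled to an equal total its groups did overlap.

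Hdac1 had 2155, 4149, 4064 and 2970 normalized counts in CCR8- and 6389, 4873, 3189 and 4238 in CCR8+ replicates 1 to 4. The highest values were CCR8+ replicates 1 and 2, and CCR8+ replicate 3 lay within the CCR8- range (log2 fold change 0.49, 95% interval -0.12 to 1.10, and 0.30 without CCR8- replicate 1). Hdac7, a class IIa deacetylase that shuttles between nucleus and cytoplasm in T cells, was the single zinc-dependent deacetylase with an estimate below 0 in the main test. It had 817, 213, 521 and 343 normalized counts in CCR8- and 455, 195, 190.5 and 194 in CCR8+ replicates 1 to 4. The groups overlapped through CCR8+ replicate 1, yet the CCR8+ value was lower in all 4 pairs (log2 fold change -0.81 ± 0.54 SE; limma unadjusted p = 0.161), and the estimate was -0.49 without CCR8- replicate 1. Hdac5, of the same class, had 0, 71.3, 258 and 122 normalized counts in CCR8- and 188, 79.8, 379 and 151 in CCR8+ replicates 1 to 4, and its log2 fold change of 2.15 was 0.39 without CCR8- replicate 1.

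The 7 sirtuins had a median log2 fold change of -0.70, with 4 below 0, and of 0.14, with 2 below 0, without CCR8+ replicate 1. Sirt7 had 4696, 3476, 3752 and 2518 normalized counts in CCR8- and 2293, 2407, 1518 and 2624 in CCR8+ replicates 1 to 4. The groups overlapped at a single point, where CCR8+ replicate 4 exceeded CCR8- replicate 4. The mean was 3610.2 ± 896 in CCR8- and 2210.4 ± 482 in CCR8+ cells (SD, n = 4), a log2 fold change of -0.70 ± 0.25 (SE; limma unadjusted p = 0.0179, adjusted p = 0.838). This was the lowest unadjusted p of the 63 enzymes, and DESeq2 gave it an adjusted p of 0.259. Exons of Sirt7 share 178 bases with Mafg and a microRNA gene on the same strand.

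Sirt2 had 906 to 1485 normalized counts in CCR8- and 932 to 1760 in CCR8+ libraries, with a log2 fold change of 0.21 (95% interval -0.38 to 0.81), or 0.082 without CCR8- replicate 1. The remaining sirtuins were each at 0 in a library, and their estimates ran from -1.71 to 2.38. Sirt1, a nuclear deacetylase of histones and transcription factors, had 0, 295, 145 and 338 normalized counts in CCR8- and 19.5, 254, 251 and 165 in CCR8+ replicates 1 to 4. Both low values carried the number 1, and its log2 fold change of 0.97 (SE 1.80) was -1.01 without CCR8- replicate 1. Sirt5, a mitochondrial enzyme that removes succinyl and malonyl groups, had 0, 121, 112 and 59.1 normalized counts in CCR8- and 71.3, 185, 376 and 118 in CCR8+ replicates 1 to 4. It was higher in CCR8+ cells in all 4 pairs, but the groups overlapped (log2 fold change 2.38 ± 1.57 SE; limma unadjusted p = 0.157), and the estimate was 0.74 without CCR8- replicate 1. Sirt3 and Sirt4, also mitochondrial, and Sirt6, a chromatin deacylase, were at 0 in CCR8+ replicate 1 and had log2 fold changes of -1.55, -1.58 and -1.71. Without that library the values were 0.14, -0.07 and 0.14. Exons of Sirt3 share 12.7% of their bases with genes on the other strand.

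Of the dioxygenases, Tet3 and Tet2 had reads in every library. Tet3 had 278 to 376 normalized counts in CCR8- and 232 to 399 in CCR8+ libraries (log2 fold change -0.11, 95% interval -1.05 to 0.83). Tet2 had 23.6, 288, 421 and 320 normalized counts in CCR8- and 311, 338, 335 and 284 in CCR8+ replicates 1 to 4. Its CCR8+ values were close together, and the log2 fold change of 0.85 turned to -0.10 without CCR8- replicate 1, the low value. Tet1 had 0, 0, 0 and 1.14 normalized counts in CCR8- and 168, 16.8, 0 and 13.1 in CCR8+ replicates 1 to 4. It passed the limit on the mean through the CCR8+ group alone, and did not pass it without CCR8+ replicate 1. The reads came to 1 in CCR8- and 190 in CCR8+ libraries, of which 155 were in CCR8+ replicate 1, and CCR8+ replicate 3 had none. The exact permutation p was 0.143.

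**Figure D4:**
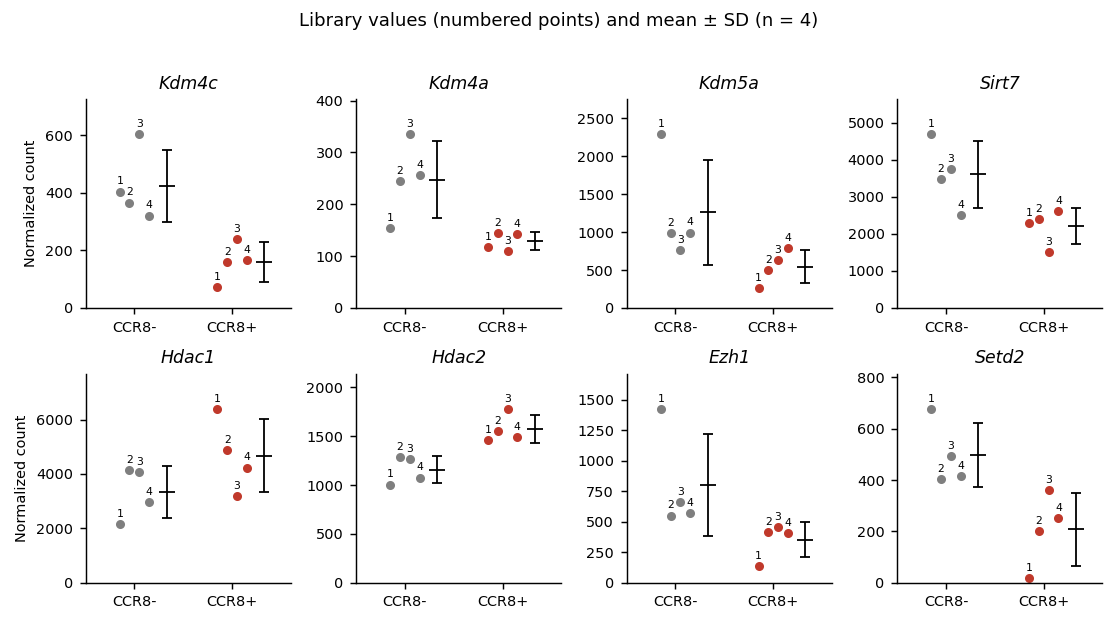
Normalized counts of 8 enzymes in each library (points numbered by replicate; grey CCR8-, red CCR8+), with the mean ± SD of 4 libraries beside them and each axis starting at 0. Kdm4c, Kdm4a, Ezh1 and Setd2 have every red point below every grey point, Hdac2 has every red point above, and Kdm5a, Sirt7 and Hdac1 overlap.

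Within same-numbered pairs, writers and erasers were compared apart. The median difference of the writers, CCR8+ minus CCR8-, was -0.16, -0.08, -0.17 and -0.08 on the log2 scale in pairs 1 to 4, and that of the erasers was 0.53, -0.10, -0.29 and -0.11. The median of all tested genes lay between -0.01 and 0 in each pair. Writers were thus below 0 in every pair by a small amount, and erasers in every pair but pair 1, which holds CCR8- replicate 1. In pairs 1 to 4, 14, 16, 20 and 15 of 28 writers and 16, 18, 21 and 19 of 35 erasers were lower in the CCR8+ library. Of the 11032 tested genes, 4591, 5566, 5513 and 5564 were lower in pairs 1 to 4, and the rest were higher or tied. The pairs are not replicates of these genes, and no test was made over the set.

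A difference of the same sign in all 4 pairs was found for 11 enzymes, or 17.5%, beside 16.5% of all tested genes. Of these, 3 were higher in CCR8+ cells (Hdac2, Sirt5 and Hdac5; 4.76% beside 8.44%) and 8 were lower (Kdm4c, Kdm4a, Kdm5a, Ezh1, Setd2, Hdac7, Kmt2e and Kat2a; 12.7% beside 8.1%). All 3 of the higher ones were erasers, and the lower ones were 4 erasers and 4 writers. Hdac2 kept an even difference across the pairs, of 0.53, 0.27, 0.49 and 0.47. Ezh1 had differences of -3.36, -0.41, -0.53 and -0.49, and Setd2 of -5.21 in pair 1 and between -1.0 and -0.45 in the others, so that for both the libraries numbered 1 gave the largest by far.

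**Figure D5:**
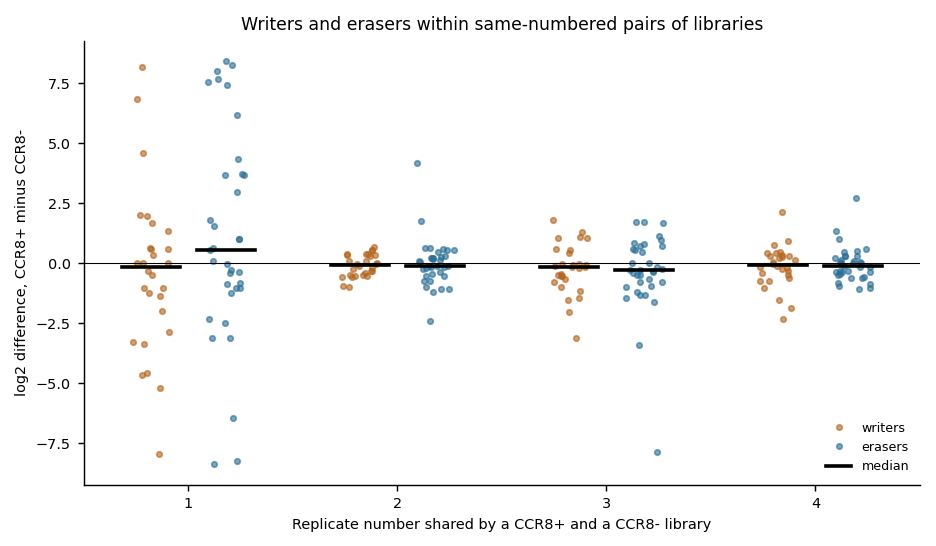
log2(normalized count + 1) difference, CCR8+ minus CCR8-, of each writer (brown) and eraser (blue) within each same-numbered pair of libraries, with the median as a bar. Pair 1 spreads from below -8 to above 8, while most points of pairs 2 to 4 lie near 0. The eraser median is 0.53 in pair 1 and between -0.29 and -0.10 in the others.

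The promoters of the 5 enzymes whose groups did not overlap are shown so that their base composition can be seen. Each is the 250 bases before the gene's start on its own strand, from RefSeq on GRCm38, which is not the NCBIM37 build the authors aligned to. Capitals mark a GC box (GGGCGG) or a CCAAT box (CCAAT), searched on both strands, with overlapping matches joined.
Kdm4c (chr4:74242247-74242496, + strand): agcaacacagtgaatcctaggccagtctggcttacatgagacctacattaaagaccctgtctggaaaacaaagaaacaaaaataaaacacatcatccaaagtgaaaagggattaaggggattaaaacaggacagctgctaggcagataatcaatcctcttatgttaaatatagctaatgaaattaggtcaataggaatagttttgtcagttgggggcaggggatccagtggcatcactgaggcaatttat
Kdm4a (chr4:118180044-118180293, - strand): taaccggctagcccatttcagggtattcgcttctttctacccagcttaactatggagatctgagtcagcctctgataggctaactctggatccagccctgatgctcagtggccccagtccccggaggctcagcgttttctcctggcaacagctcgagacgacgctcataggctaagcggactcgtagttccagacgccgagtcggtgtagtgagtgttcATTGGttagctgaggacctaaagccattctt
Setd2 (chr9:110532347-110532596, + strand): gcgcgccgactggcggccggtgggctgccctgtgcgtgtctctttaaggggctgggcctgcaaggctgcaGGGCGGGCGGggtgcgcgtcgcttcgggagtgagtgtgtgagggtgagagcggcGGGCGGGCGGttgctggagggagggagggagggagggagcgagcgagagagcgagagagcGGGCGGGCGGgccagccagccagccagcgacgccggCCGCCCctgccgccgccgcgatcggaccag
Ezh1 (chr11:101226464-101226713, - strand): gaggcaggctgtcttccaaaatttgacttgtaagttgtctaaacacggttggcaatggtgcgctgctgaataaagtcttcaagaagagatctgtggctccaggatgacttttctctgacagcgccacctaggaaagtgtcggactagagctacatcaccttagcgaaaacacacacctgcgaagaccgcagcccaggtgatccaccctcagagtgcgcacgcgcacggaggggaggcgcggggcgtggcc
Hdac2 (chr10:36974294-36974543, + strand): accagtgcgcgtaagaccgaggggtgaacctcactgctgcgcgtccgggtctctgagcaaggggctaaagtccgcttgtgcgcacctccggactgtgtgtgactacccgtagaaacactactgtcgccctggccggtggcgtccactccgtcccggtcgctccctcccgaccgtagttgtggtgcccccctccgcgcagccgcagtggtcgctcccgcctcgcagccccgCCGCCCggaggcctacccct
Setd2 had 7 GC box matches in a window of 76.0% G and C, Hdac2 had 1 in a window of 68.8%, and Kdm4c, Kdm4a and Ezh1 had 0, with 39.6%, 53.6% and 55.2% G and C. A CCAAT box was matched in Kdm4a alone. A promoter was listed for 51 of the 63 enzymes, and a GC box was matched in 58.8% of them beside 32.7% of all 32851 promoters, and a CCAAT box in 45.1% beside 33.8%. A match is a description of the letters and not of a bound site.

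The enzymes work in complexes, and 159 partner genes of such complexes were tested as lists. Of these, 78 had estimates above 0 and 81 below, with a median log2 fold change of -0.02, and 0 passed at an adjusted p under 0.05. At an unadjusted limma p under 0.05, 3 were higher (Rbbp7, Msl3 and Gadd45b) and 5 lower (Ncoa3, Chd3, Gps2, Kansl1 and Kansl3), that is 8 of 159, a share near the 5.09% of all tested genes. Rbbp7, a histone-binding subunit shared by Polycomb repressive complex 2 and the Hdac1 and Hdac2 complexes, had 5189, 3703, 6175 and 3337 normalized counts in CCR8- and 9118, 6769, 15704 and 6452 in CCR8+ replicates 1 to 4. The groups did not overlap (log2 fold change 0.995 ± 0.31 SE; limma unadjusted p = 0.00869, adjusted p = 0.838). With the replicate number as a block, DESeq2 called it at an adjusted p of 6.11e-05 and limma gave 0.586. DESeq2 with that block called 1.12% of all tested genes.

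Of the lower partners, Chd3, a remodeling ATPase of the NuRD complex, had 2456, 1003, 848 and 1064 normalized counts in CCR8- and 317, 653, 424 and 789 in CCR8+ replicates 1 to 4. Its groups did not overlap (log2 fold change -1.25 ± 0.41 SE; limma unadjusted p = 0.0105). Nor did the groups of further partners not named here, in both directions, and the same held for 4.4% of all tested genes. Kansl1 and Kansl3, subunits of the complex that carries the acetyltransferase Kat8, had log2 fold changes of -1.20 and -1.63, and the groups of Kansl1 did not overlap. Without CCR8- replicate 1 the estimate of Kansl1 was -0.75. Gps2, of the Ncor and Hdac3 corepressor complex, and Ncoa3, a nuclear receptor coactivator, had -0.69 and -0.92. On the other side Gadd45b, a stress-induced gene linked to DNA demethylation, had a log2 fold change of 1.08, or 0.59 without CCR8- replicate 1, and Msl3, of the other Kat8 complex, had 1.48.

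The other 34 enzymes had log2 fold changes between -1.35 and 1.47, and their lowest unadjusted limma p was 0.124. Their mean levels ran from 5.2 to 197.6 normalized counts per kilobase, the highest being that of Hdac3, the catalytic subunit of the Ncor corepressor complex. Among them, Hdac4 and Kdm3b share 22.4% and 24.6% of their exonic bases with a gene on the other strand, and Setd1a shares 3523 bases with a gene on the same strand, so their counts are uncertain.

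The expression of Dnmt1, Ezh2 and Setd8 is known to follow the cell cycle. The 20 cell cycle genes summed to 37052, 24758, 40698 and 24570 normalized counts in CCR8- and 50844, 42154, 21338 and 32483 in CCR8+ replicates 1 to 4. The highest and the lowest sums were both in CCR8+ libraries, and 0 of the 20 genes passed the test at an adjusted p under 0.05. At an unadjusted p under 0.05 there was 1 of 20, beside 5.09% of all tested genes: Mcm6, a subunit of the replicative helicase, with a log2 fold change of 0.71 (limma unadjusted p = 0.0257). The part of the cell cycle in the enzyme values was not tested.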

How the data were processed

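Bulk RNA-Seq of 4 CCR8+ and 4 CCR8- libraries was analysed. A low-input kit with cDNA amplification had been used. By the methods and the submitters' processing notes, the authors checked reads with FastQC, trimmed them with Cutadapt, aligned them to NCBIM37 (mm9) with hisat2, kept uniquely mapped reads, and named HTSeq and DESeq2. Tool versions, and whether strand was used, are not given in the sources used here. The deposited signal is a normalized read count per gene, that is reads divided by 1 factor per library, scaled by the authors to library size with intergenic reads. Totals were 11469410 to 14394101. Every value was a whole multiple of 1 read (100% of values, tolerance 0.01 reads), so reads were recovered. A gene at 3 reads had 2.21 to 3.42 normalized counts. The intervals of the fold changes come from limma and measure the spread between libraries, not counting error alone. There are no molecular identifiers.

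Groups and replicate numbers came from the labels. The main test was limma 3.58.1 (R 4.3.3) with an intensity trend on log2(normalized count + 1), over 11032 genes whose mean was 10 or more, and p-values were adjusted by Benjamini-Hochberg. Fold changes are on that scale, where the added 1 draws differences between low values towards 0. A single library at 0 can instead make them larger than by edgeR. Examples are Setd6 (2.31, beside 0.60 by edgeR) and Sirt6 (-1.71, beside -0.26). The deposited values were not raw counts, so edgeR 4.0.16 (quasi-likelihood) and DESeq2 1.42.0 (Wald) on recovered reads were alternatives. Exact two-sided permutation tests ran over 70 assignments, with a smallest p of 0.0286. Within a pair, the difference is between a CCR8+ and a CCR8- library of the same number. Writers and erasers follow the gene names. Lengths and positions are from GENCODE M21 on GRCm38, where all 63 enzymes were matched.

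The genes named are those with groups that did not overlap, those at an unadjusted p under 0.05, the 5 highest and 5 lowest fold changes, the 6 highest means, the highest of each class and a list of 8 (Dnmt1, Dnmt3a, Ezh2, Tet2, Kdm6b, Hdac1, Hdac7 and Sirt1). Names given beside counts also include enzymes chosen after their values were seen. Members and lists were chosen with earlier results of these data known. Some list genes are not reported here and were left out of the lists after their values were seen. Alternatives were other scalings, pseudocounts, limits on the mean, limma settings, the replicate block and leaving out each library. Leaving out both libraries numbered 1, and keeping enzymes above 3 reads in all libraries, were chosen after seeing the data. The tests were checked on simulated data.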

Additional observations from a re-analysis of the deposited data

Results flagged for a closer look

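For 37 named genes, each group of 4 libraries was searched for a value whose gap to the nearest other, as a share of the group's range, passed Dixon's 95% critical value. Of 74 groups 12 did. Chance alone gives about 1 in 20, but part of these genes were named for their large differences, so the count is not to be set against that share. The values far from their group fell in 3 libraries, and 10 of the 12 were below the others. In CCR8- replicate 1, Tet2 had 23.6 normalized counts beside 288 to 421 in the other CCR8- libraries, and Sirt1, Sirt5 and Setd6 had 0 beside 145 to 338, 59.1 to 121 and 523 to 628. In CCR8+ replicate 1, Sirt1 had 19.5 normalized counts beside 165 to 254, Ezh1 had 137 beside 404 to 454, and Kat7 had 473 beside 746 to 798. In that library Sirt4, Sirt6 and Setd7 had 0, beside 64.4 to 66.1, 106 to 254 and 77.3 to 84.4. Hdac7 was far above its group there, with 455 beside 190.5 to 195. In CCR8- replicate 4, Tet1 had 1.14 normalized counts, a single read, beside 0 in the others. The part of incomplete detection in these values was not tested.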

How the results depend on the processing

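The count of enzymes at an adjusted p under 0.05 was 0 under every alternative run. At an unadjusted p the 4 became 9 with limma quality weights (beside 14.2% of all tested genes) and 2 without both libraries numbered 1 (beside 6%). They were 2 to 6 when each library was left out in turn, beside 3.45% to 6.39% of all tested genes. The 5 enzymes whose groups did not overlap were 5 to 9 when each library was left out, beside 6.35% to 8.8% of all tested genes. The 11 with the same sign in all pairs were 17 to 23 when a library and its pair were left out, and 23 without both numbered 1, as 3 pairs then had to share a sign. The share of all tested genes rose in the same way, from 16.5% to between 24.7% and 32.8%. The writer median of -0.04 ranged from -0.34 to 0.092 and the eraser median of 0.18 from -0.36 to 0.25 with each library left out. Without both numbered 1 the eraser median was -0.15 and the writer median -0.08. Over the 23 erasers and the 22 writers above 3 reads in all libraries the medians were -0.11 and -0.20.

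The replicate number as a block changed no call of an enzyme at an adjusted p. At an unadjusted p under 0.05 it left 2 enzymes by limma, 2 by edgeR and 4 by DESeq2. The shares of all tested genes were 5.39%, 3.94% and 9.02%. Same-numbered libraries deviated together with correlations of 0.0682, 0.138, 0.108 and 0.217, all above 0 but not all over 0.1. Between different numbers the correlations ran from -0.171 to 0.101. Every library but CCR8- replicate 1 (0.0954 with CCR8+ replicate 3) correlated best with its own number. The correlations were low and the labels do not say what a number stands for, so the numbers do not establish a pairing. DESeq2 with the block called the partners Rbbp7 (log2 fold change 0.99) and Gadd45b (1.07), and limma quality weights called Rbbp7 (0.97). These settings called 1.12% and 1.02% of all tested genes at an adjusted p under 0.05, so the calls do not set the partners apart.

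Of 884 gene and alternative pairs over 37 named genes, 861 kept their direction and call. Without both numbered 1 the log2 fold change turned for Dnmt1 (-0.026), Kat7 (0.10), Kdm4b (-0.31), Kdm6b (0.0134), Sirt1 (-0.15), Sirt3 (0.72), Sirt4 (0.63) and Tet2 (-0.0913). Sirt1 also turned with quality weights (-0.59), edgeR (-0.18) and DESeq2 (-0.18), and Sirt3 with quality weights (0.32). With each library left out, the range was -0.094 to 0.43 for Dnmt1, -0.15 to 2.80 for Kdm4b, -0.56 to 0.20 for Kdm6b, -1.01 to 1.83 for Sirt1, -2.53 to 0.14 for Sirt3, -2.52 to 0.14 for Sirt6 and -0.10 to 1.27 for Tet2. The cause was not tested. DESeq2 gave an adjusted p to 6 of the 63 enzymes.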

Other observations

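The partner genes fell into 10 lists by complex, and 0 genes of any list passed at an adjusted p under 0.05. Partners of DNA methylation, which bind methylated cytosine or take part in its loss, had a median log2 fold change of 0.78, with 11 of 13 genes above 0. Without CCR8- replicate 1 the median was 0.22, with 7 of 13 above 0. Subunits of the COMPASS complexes, which carry the Kmt2 methyltransferases, had a median of 0.36, with 8 of 9 above 0, and of 0.11, with 5 of 9 above 0, without CCR8- replicate 1. Subunits of acetyltransferase complexes had a median of -0.34, with 17 of 27 below 0, beside -0.27 for the acetyltransferases themselves. This median was -0.33 without CCR8- replicate 1 and -0.12 without CCR8+ replicate 1.

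With all 8 libraries the median was 0.21 over 24 other lysine or arginine methyltransferases and relatives, 0.14 over 9 genes of Polycomb repressive complex 2, -0.01 over 10 other acetyltransferases and coactivators, and -0.09 over 23 corepressor genes. It was -0.10 over 17 genes of Polycomb repressive complex 1, -0.11 over 9 other demethylases and relatives and -0.12 over 18 SWI/SNF genes. Without CCR8- replicate 1 it was -0.42 over the genes of Polycomb repressive complex 1, -0.39 over the corepressors, -0.22 over the other acetyltransferases and 0.16 over the other demethylases. It was then 0.032 over the other methyltransferases, 0.12 over Polycomb repressive complex 2 and -0.034 over SWI/SNF genes.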
